A study of Mus musculus with 11 samples.

Results

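Granins and their companion proteins of the secretory granule were examined in sorted mouse islet cells through the genes *Chga*, *Chgb*, *Scg2*, *Scg3*, *Vgf*, *Scg5*, *Pcsk1n*, *Ptprn* and *Ptprn2*. These 9 genes were chosen by symbol from the 55401 genes of the count table, and all 9 were found and passed the filter on low counts, which left 17424 genes. RNA had been sequenced from 3 fractions sorted by FACS from islets of male C57BL6/J mice, chow fed and 10 weeks old by the labels (the study's text gives a younger adult age). All mice carried the same alleles, a rat insulin promoter (RIP)-Cre with STOP-tdTomato and *Nnat*-EGFP, so that the fractions differ by the sort and not by genotype. Cre driven by the rat insulin promoter switches on tdTomato in cells that have used that promoter, and the EGFP gene, carried by a bacterial artificial chromosome, reports the *Nnat* regulatory region, not the endogenous transcript. By their labels, NNAT-positive beta cells made up 4 libraries, NNAT-negative ones another 4, and non-beta cells 3. Fractions with the same number were taken to come from the same mouse, by those numbers and the study's description of individual mice. Mouse 4 had no non-beta library.

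Endocrine cells store peptide hormones in dense-core granules that form at the trans-Golgi network. Granins are acidic, soluble proteins that aggregate with hormones and calcium there and leave the cell with them on exocytosis, and many are also cut into peptides of their own. Prohormone convertases mature the cargo inside the granule under the control of small binding proteins, while transmembrane proteins such as those encoded by *Ptprn* and *Ptprn2* sit in the granule membrane. All islet endocrine cell types make such granules, so the genes are not particular to beta cells.

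Total counts were between 30420352 and 43238376 per library, and 3 counts, taken as the floor of detection, corresponded to at most 0.102 CPM (counts scaled to library size, with TMM normalisation). Intervals and floors for single libraries cover counting error only. The label was first checked on *Nnat* itself, which went against it in 4 of 4 mice. NNAT-positive libraries had 61.0 ± 26.8 CPM of *Nnat* (mean ± SD, n = 4), below the 93.8 ± 40.1 CPM (n = 4) of NNAT-negative libraries, and non-beta cells had 20.1 ± 8.79 CPM (n = 3). Matched by value, 8 of 8 beta cell libraries stand under the opposite heading in the study's own normalised values. NNAT-positive and NNAT-negative are used here as the labels have them, as names of libraries, and each sign between the beta cell fractions would turn if that other heading were the right one. In the beta cell libraries *Ins1* and *Ins2* took 17.8% to 34.4% of counts, against 0.970% to 2.34% in non-beta libraries. The alpha cell markers used (*Gcg*, *Ttr* and *Irx2*) summed to between 122802 and 170947 CPM in non-beta cells and the 4 delta cell markers to between 6898 and 13508 CPM. Non-beta libraries also held acinar (12161 to 46556 CPM over 5 markers), mesenchymal (1346 to 3542 CPM over 3), endothelial (1397 to 1587 CPM over 3), leukocyte (919 to 2094 CPM over 3), ductal (173 to 324 CPM over 3) and glial markers (15.9 to 20.9 CPM over 2), so that this fraction was not endocrine cells alone.

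The regulatory sequence just before the RefSeq transcription start was searched first, because granin genes are known targets of cAMP signalling. The motif was the cAMP response element TGACGTCA, together with its half-site TGACG, on either strand, in the 250 bases before each RefSeq start (GRCm38.p6). The full element was found in 2 of the 8 member genes that matched the promoter table (*Scg2* and *Chgb*; *Vgf* had no entry), and 1.77% of 27025 genes had it. The half-site, which every full element contains, was found in 6 of the 8, against 19.8% of all genes. It was not among the letters of the windows of *Pcsk1n* and *Ptprn2*, nor of that before 1 of the 2 starts of *Ptprn*. Counted by start, 6 of the 9 windows of the members had it, against 17.8% of 32851 windows. Distances to the start are by RefSeq. The gene spans given further below are from gencode M21 and begin further upstream for *Scg2*, *Chgb* and *Ptprn*. By those spans the printed windows of these genes lie inside the gene, and those of *Chga*, *Scg3* and *Scg5* lie before it. A match is a description of these letters, not a tested binding site. The windows are shown 5′ to 3′ on the strand of the gene with the match in capitals, in *Ptprn* as the reverse complement of the half-site. They lay at chr1:79440076-79440105 for *Scg2* (minus strand, the match starting 68 bases before the start), chr2:132781559-132781588 for *Chgb* (plus, 72 bases), chr12:102554886-102554912 for *Chga* (plus, 44 bases), chr9:75684071-75684097 for *Scg3* (minus, 30 bases), chr2:113829251-113829277 for *Scg5* (minus, 175 bases) and chr1:75264273-75264299 for *Ptprn* (minus, 80 bases, the nearer of its 2 matches).
Scg2: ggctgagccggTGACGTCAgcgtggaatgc
Chgb: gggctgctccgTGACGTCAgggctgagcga
Chga: gggcggtcctaTGACGtaatttcctgg
Scg3: cgctgggtcgcTGACGccatcctcacg
Scg5: aaggaggtaaaTGACGttcataggggt
Ptprn: ggtggagatgtCGTCAttgcacgcctg

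Together the 9 genes took 2.98% to 3.69% of all counts in the 8 beta cell libraries and 1.35% to 1.81% in the 3 non-beta libraries. Levels were compared between genes only as RPKM, which divides CPM by the exonic length in kilobases. On that scale *Chga* was the highest of the 9 in every fraction, with 5988 ± 777 RPKM (mean ± SD, here and below over 4, 4 and 3 libraries) in NNAT-positive, 6102 ± 1384 RPKM in NNAT-negative and 2556 ± 599 RPKM in non-beta cells. It ranked 4th of 17409 tested genes with a known length in both beta cell fractions and 14th in non-beta cells. *Scg2* followed at 3532 ± 794, 3717 ± 725 and 811 ± 185 RPKM, and *Vgf* was the lowest throughout at 14.8 ± 5.07, 16.2 ± 6.79 and 7.84 ± 1.03 RPKM. In NNAT-positive cells *Scg3* (861 RPKM), *Chgb* (707) and *Scg5* (669) came next and overlapped with their neighbours in that order, then *Pcsk1n* (347), *Ptprn* (180) and *Ptprn2* (119), which did not. In NNAT-negative cells the libraries of *Chga* and *Scg2* overlapped, and so did those of *Scg3*, *Scg5*, *Chgb* and *Pcsk1n* with their neighbours. In non-beta cells *Pcsk1n* came after *Scg2* at 706 RPKM and overlapped with it and with *Chgb* (602 RPKM) below it. With 3 or 4 mice per fraction these are orders of means, and overlap was judged across mice. Within single libraries each order held in every mouse, with these exceptions. *Scg5* changed places with *Chgb* in each fraction and with *Scg3* in NNAT-negative cells.

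**Figure D1:**
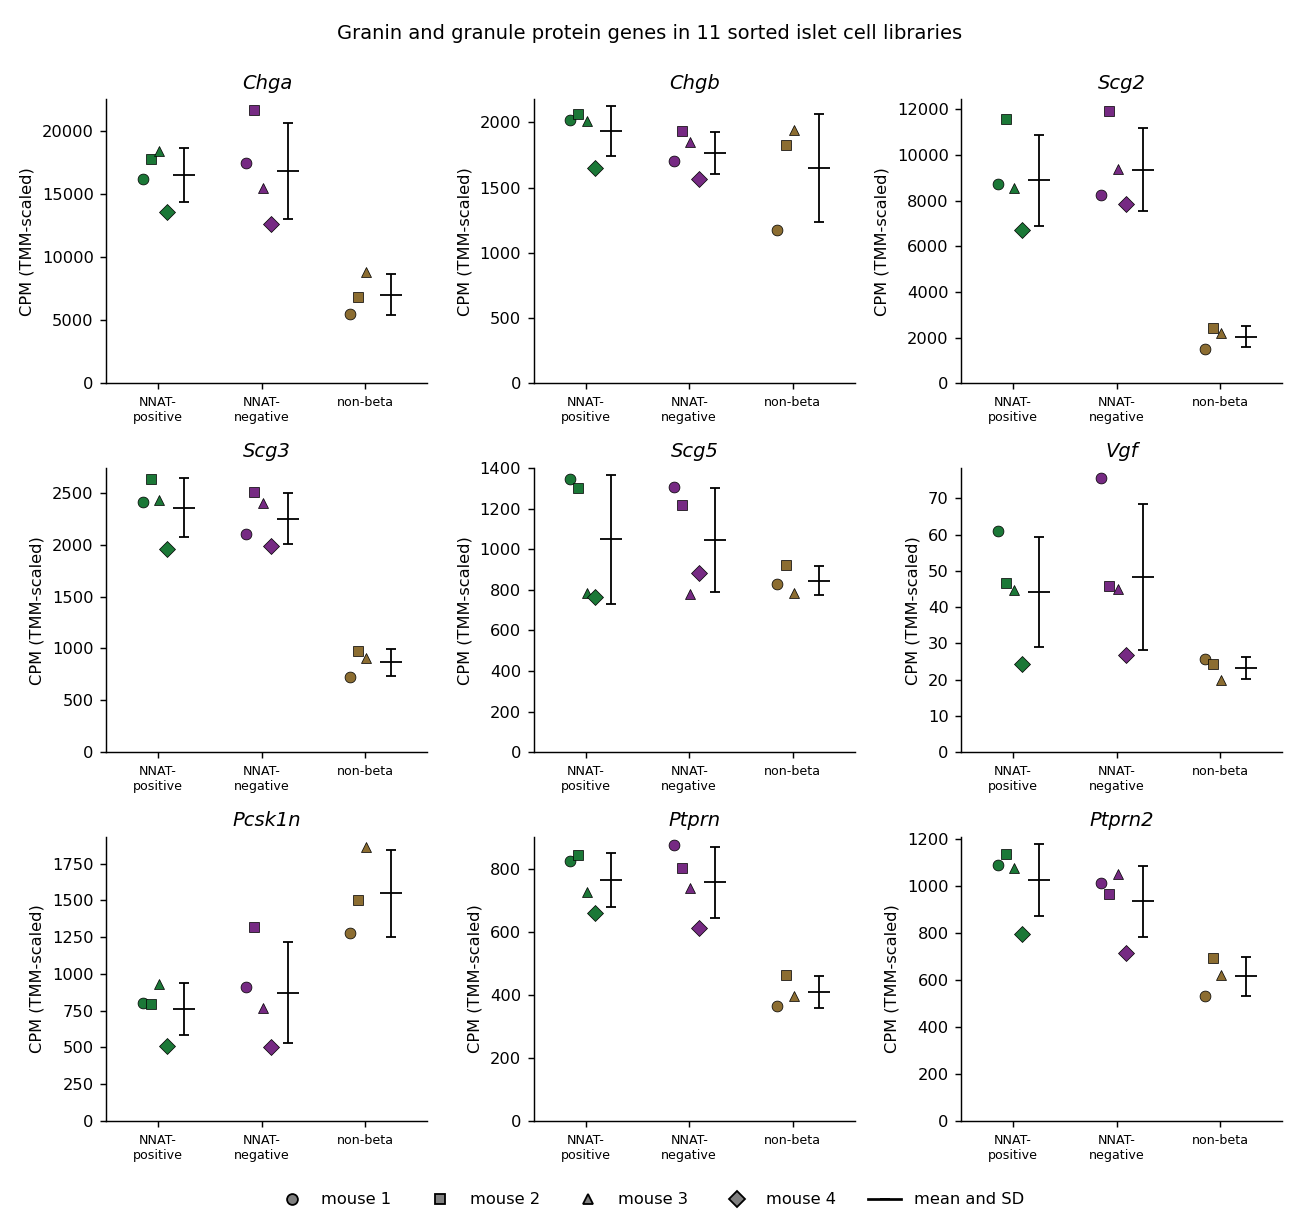
Levels of the 9 genes in the 11 libraries, in CPM with TMM scaling on an axis from 0 and with each panel on its own scale; symbols mark the mouse, and the bar beside each fraction is the mean with the SD. Non-beta cells lie below all beta cell libraries for Chga, Scg2, Scg3, Ptprn and Ptprn2, and on this TMM scale both libraries of mouse 4 are the lowest beta cell libraries for 8 of the 9 genes (for 2 with library totals alone).

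Beta cells were compared with non-beta cells, both beta cell fractions against the non-beta fraction. Of the 9 genes, 6 were higher in beta cells (*Scg2*, *Scg3*, *Chga*, *Vgf*, *Ptprn* and *Ptprn2*) and 1, *Pcsk1n*, was lower at an adjusted *p* below 0.01 (edgeR's quasi-likelihood test with the mouse as a block, Benjamini-Hochberg adjustment over all tested genes). *Scg5* and *Chgb* were not called. Among all tested genes 17.2% were called higher and 23.9% lower, 41.1% in all. The median log2 fold change was 0.98 over the 9 genes and -0.10 over all tested genes. Libraries of beta and non-beta cells did not overlap for 5 of the 9, all with beta cells higher, and this was so for 16.5% of tested genes. The non-beta fraction is a mixture, and in bulk samples fewer cells that express a gene and less RNA per cell cannot be told apart. Mouse 4, which lacks a non-beta library, adds to the estimate of the spread in this comparison and not to the difference.

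*Scg2* (chr1:79434669-79440120, minus strand, GRCm38; ENSMUSG00000050711.7), the precursor of secretoneurin, showed the largest difference of the 9. It was at 8705, 11549, 8564 and 6711 CPM in the NNAT-positive libraries of mice 1 to 4, at 8249, 11904, 9390 and 7852 CPM in the NNAT-negative libraries, and at 1515, 2402 and 2201 CPM in non-beta cells of mice 1 to 3. Each beta cell library was far above each non-beta library, and mouse 2 was the highest in every fraction. The fitted difference was 2.26 on the log2 scale (SE 0.11, adjusted *p* = 8.17e-08 by edgeR), a 4.80-fold higher level in beta cells.

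*Scg3* (chr9:75643189-75684056, minus strand; ENSMUSG00000032181.7) encodes a granin known to bind chromogranin A and the cholesterol-rich granule membrane. Its levels were 2407, 2634, 2429 and 1956 CPM in the NNAT-positive libraries, 2102, 2505, 2404 and 1990 CPM in the NNAT-negative libraries and 722, 973 and 904 CPM in non-beta cells. The groups did not overlap, and the spread between mice was narrow beside the gap to the non-beta libraries. The log2 fold change was 1.49 (SE 0.09, adjusted *p* = 4.84e-07 by edgeR), or 2.80-fold.

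*Chga* (chr12:102554969-102565028, plus strand; ENSMUSG00000021194.6), which encodes chromogranin A, the prototype granin and a general marker of endocrine cells, was at 16211, 17821, 18379 and 13604 CPM in the NNAT-positive libraries. It was at 17468, 21692, 15509 and 12601 CPM in the NNAT-negative libraries and at 5511, 6831 and 8794 CPM in non-beta cells. The lowest beta cell library, from mouse 4, still lay above the highest non-beta library. Beta cells were 2.56-fold higher (log2 fold change 1.35, SE 0.14, adjusted *p* = 1.69e-05 by edgeR).

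*Chgb* (chr2:132781278-132795079, plus strand; ENSMUSG00000027350.8), the gene for chromogranin B, another core protein of the granule matrix, was not called. Its levels were 2018, 2064, 2014 and 1647 CPM in NNAT-positive, 1705, 1933, 1850 and 1566 CPM in NNAT-negative and 1178, 1829 and 1945 CPM in non-beta cells. Non-beta cells of mice 2 and 3 fell within the range of the beta cells, and mouse 1 fell below it. The log2 fold change of 0.25 (SE 0.12, 95% CI -0.02 to 0.52, adjusted *p* = 0.112 by edgeR) did not pass the test. It was 0.06 without mouse 1 (adjusted *p* = 0.664) and 0.39 without mouse 3 (0.0602), both by edgeR. Per length, the ratio of *Chga* to *Chgb* was 8.46 ± 0.475 in NNAT-positive, 9.42 ± 1.51 in NNAT-negative and 4.29 ± 0.502 in non-beta cells, where its highest value, 4.65, was below the lowest beta cell value, 7.99.

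*Vgf* (chr5:137026392-137033351, plus strand; ENSMUSG00000037428.14), a granin first found as inducible by nerve growth factor and cut into several bioactive peptides, had the lowest level of the 9 per length. It was at 60.9, 46.5, 44.8 and 24.3 CPM in NNAT-positive, 75.5, 45.7, 45.1 and 26.8 CPM in NNAT-negative and 25.7, 24.3 and 19.9 CPM in non-beta cells. Beta cells were above non-beta cells in each of mice 1 to 3, while mouse 4, with no non-beta library, was down at the level of the non-beta cells of the other mice. The log2 fold change was 1.17 (SE 0.11, adjusted *p* = 1.07e-05 by edgeR). Without the mouse as a block it was 0.99 and was not called (adjusted *p* = 0.0211 by edgeR).

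The remaining soluble members bind convertases. *Scg5* (chr2:113776362-113829121, minus strand; ENSMUSG00000023236.7) encodes the chaperone and inhibitor of the convertase encoded by *Pcsk2*. Its levels were 1348, 1302, 783 and 764 CPM in NNAT-positive, 1305, 1220.5, 778 and 884 CPM in NNAT-negative and 827, 924 and 783 CPM in non-beta cells. The beta cell libraries fell into a high pair of mice (1 and 2) and a low pair (3 and 4), in both fractions alike, and the low pair was at the level of the non-beta cells. The log2 fold change was 0.37 (SE 0.13, adjusted *p* = 0.0326 by edgeR), and without mouse 3 it was 0.57 and was called (adjusted *p* = 0.00749 by edgeR). Without mouse 1 it was 0.22 (adjusted *p* = 0.245 by edgeR).

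*Pcsk1n* (chrX:7919822-7924410, plus strand; ENSMUSG00000039278.10) encodes proSAAS, an inhibitor of the convertase encoded by *Pcsk1*, and was the only one of the 9 called lower in beta cells. It was at 803, 798, 929 and 511 CPM in NNAT-positive, 908, 1319, 765 and 502 CPM in NNAT-negative and 1280, 1501 and 1864 CPM in non-beta cells. Non-beta cells were higher within each of mice 1 to 3 for both beta cell fractions, although the NNAT-negative library of mouse 2 lay above the non-beta library of mouse 1. The log2 fold change was -0.75 (SE 0.16, adjusted *p* = 0.00272 by edgeR), 1.68-fold lower in beta cells. The call was lost without mouse 1 (-0.83, adjusted *p* = 0.0122) and without mouse 3 (-0.56, adjusted *p* = 0.0220), both by edgeR. *Eras* shares 135 exonic bases with *Pcsk1n* on the opposite strand, 6.16% of the exonic length, and the strand setting of the counting is not given in the sources used here.

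The granule membrane proteins of the group belong to the receptor-type tyrosine phosphatases but lack their usual catalytic activity, and both are known autoantigens in type 1 diabetes. *Ptprn* (chr1:75247027-75264502, minus strand; ENSMUSG00000026204.15) was at 827, 844, 727 and 661 CPM in NNAT-positive, 876, 804, 741 and 611 CPM in NNAT-negative and 365, 464 and 398 CPM in non-beta cells. *Ptprn2* (chr12:116485720-117276849, plus strand; ENSMUSG00000056553.14) was at 1086, 1134, 1074 and 796 CPM in NNAT-positive, 1010, 963, 1048 and 712 CPM in NNAT-negative and 530, 694 and 621 CPM in non-beta cells. For both genes every beta cell library was above every non-beta library, by a narrow margin for *Ptprn2* in mouse 4. The log2 fold changes were 0.98 (SE 0.10, adjusted *p* = 2e-05) for *Ptprn* and 0.78 (SE 0.10, adjusted *p* = 7.61e-05) for *Ptprn2* by edgeR, 1.97-fold and 1.72-fold. The ratio of *Ptprn* to *Ptprn2* per length was 1.52 ± 0.128, 1.65 ± 0.151 and 1.35 ± 0.0470 in NNAT-positive, NNAT-negative and non-beta cells, and its libraries overlapped between mice. Within each of mice 1 to 3 it was lowest in non-beta cells (1.39, 1.35 and 1.30, against 1.54, 1.51 and 1.37 in NNAT-positive cells). In each mouse the NNAT-positive library was below the NNAT-negative one. The ratio was not tested. The antisense gene *Gm28294* shares 189 exonic bases with *Ptprn*, 4.45% of its exonic length.

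**Figure D2:**
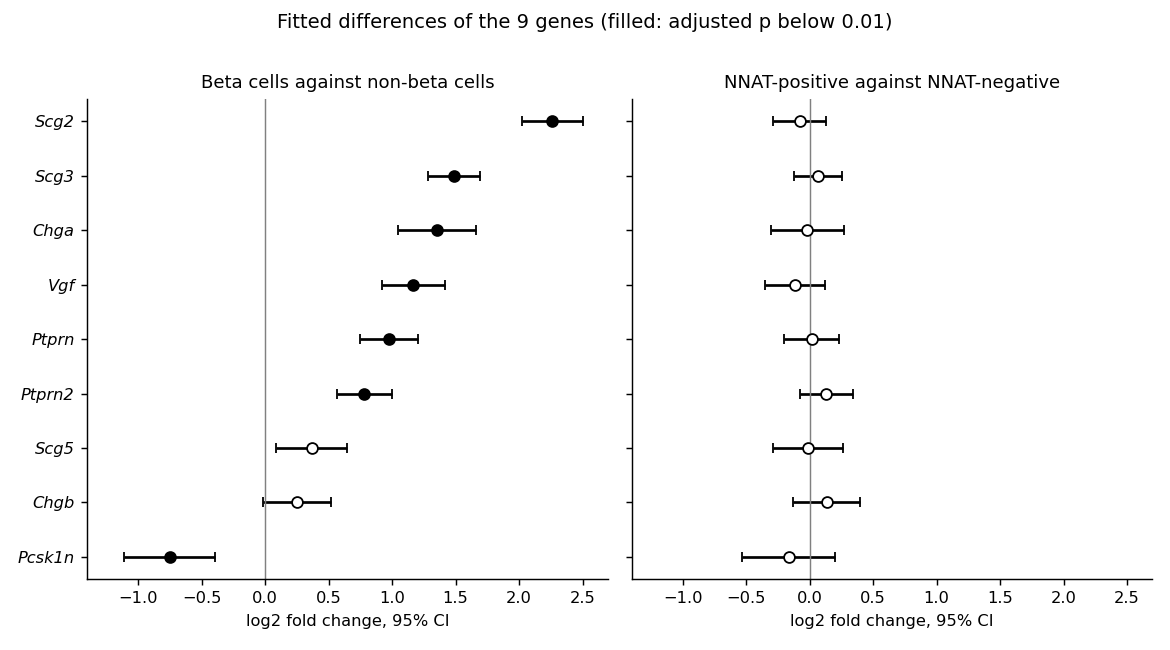
Fitted log2 fold changes of the 9 genes with 95% confidence intervals (edgeR, mouse as block), for beta against non-beta cells on the left and for NNAT-positive against NNAT-negative beta cells on the right, both on the same scale. On the left 6 genes are called higher and Pcsk1n lower, from 2.26 for Scg2 to -0.75 for Pcsk1n, and on the right all 9 intervals include 0.

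Each beta cell fraction was also set against non-beta cells on its own. These comparisons share the 3 non-beta libraries, so they are given side by side. Against NNAT-positive cells the same 7 genes were called as with both fractions (34.8% of tested genes were called in either direction). Against NNAT-negative cells 6 were called (36.8% of tested genes), since *Pcsk1n* differed by -0.67 (log2 scale, SE 0.18, adjusted *p* = 0.0119 by edgeR), against -0.84 (SE 0.18, adjusted *p* = 0.00384 by edgeR) for NNAT-positive cells. The former was called without mouse 2 (adjusted *p* = 0.00279), with RLE size factors (0.00952) and with no filter (0.00391) by edgeR, and by DESeq2 (0.000412). Without mouse 3 it was -0.41 (adjusted *p* = 0.0997 by edgeR). The latter was not called without mouse 1 (adjusted *p* = 0.0164) or mouse 3 (0.0161), both by edgeR. *Scg2* differed by 2.22 (SE 0.11) for NNAT-positive and 2.30 (SE 0.11) for NNAT-negative cells, and *Vgf* by 1.11 (SE 0.12) and 1.22 (SE 0.12).

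The differences changed the make-up of the granin transcripts as well as their amount. Of the summed RPKM of the 9 genes, *Scg2* took 28.3% ± 2.61 in NNAT-positive, 29.5% ± 2.37 in NNAT-negative and 14.2% ± 1.68 in non-beta cells, and the highest non-beta library, at 16.1%, was below the lowest beta cell library, at 26.0%. *Pcsk1n* went the other way, from 2.77% ± 0.410 and 3.06% ± 0.632 to 12.4% ± 0.729, with no overlap between beta cells (at most 3.78%) and non-beta cells (at least 11.5%). *Chgb* took 5.73% ± 0.348, 5.17% ± 0.596 and 10.5% ± 0.942, and *Scg5* 5.36% ± 1.28, 5.30% ± 1.06 and 9.67% ± 2.02, both without overlap. *Chga* held a like share in all fractions, 48.4% ± 2.87, 48.0% ± 2.22 and 44.6% ± 3.23, with overlapping libraries. These shares sum to a whole, so a smaller share of one gene raises the others. They were not tested.

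**Figure D3:**
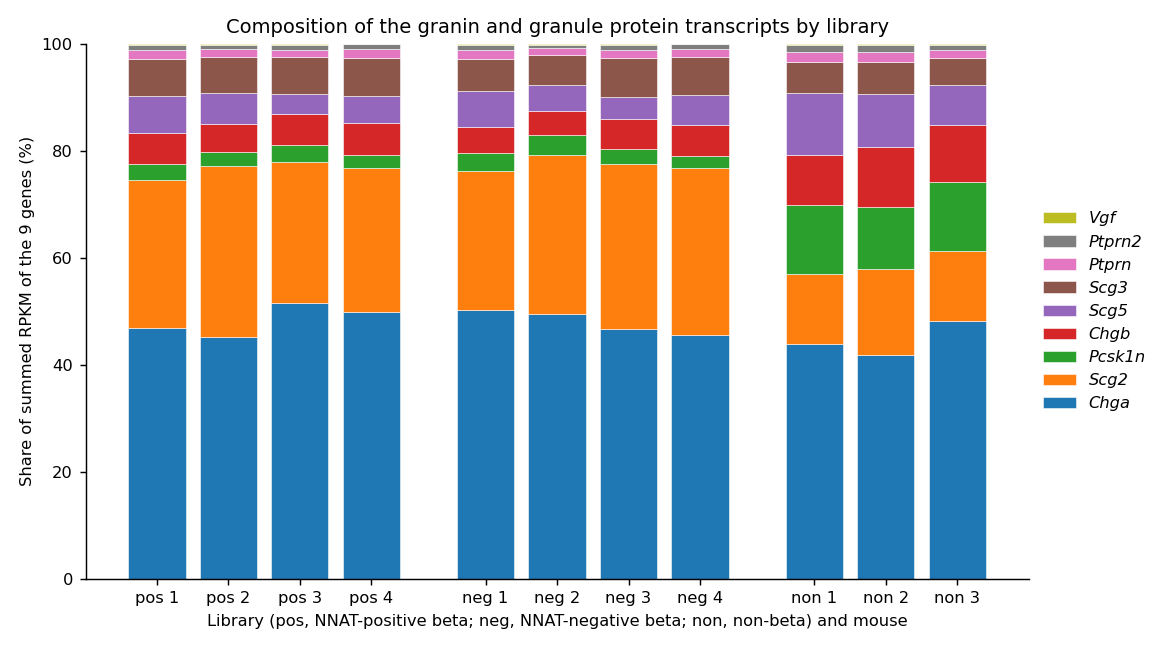
Share of each of the 9 genes in their summed RPKM, in percent, as 1 stacked bar per library; Vgf, at the top, is at most 0.202% in each bar and barely visible. Scg2 fills 26.0% to 32.1% of the beta cell bars and 13.2% to 16.1% of the non-beta bars, and Pcsk1n at most 3.78% and at least 11.5%.

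NNAT-positive and NNAT-negative beta cells were then compared, which asks whether beta cells separated by the *Nnat* reporter differ in their granins. None of the 9 genes was called (0 of 9 by edgeR and 0 of 9 by DESeq2, and 0 of 9 at an unadjusted *p* below 0.05 by edgeR). Of all tested genes 0.0517% were called, all of them higher in the libraries labelled NNAT-positive, and 5.56% had an unadjusted *p* below 0.05. The log2 fold changes of the 9 lay between -0.17 (*Pcsk1n*, SE 0.17, 95% CI -0.53 to 0.20) and 0.14 (*Chgb*, SE 0.12, 95% CI -0.13 to 0.40), with a median of -0.01 against 0.05 over all tested genes. *Chga* differed by -0.02 (95% CI -0.31 to 0.27), *Scg2* by -0.08 (-0.29 to 0.13), *Scg3* by 0.07 (-0.12 to 0.26), *Scg5* by -0.01 (-0.29 to 0.26) and *Vgf* by -0.11 (-0.35 to 0.12). *Ptprn* differed by 0.02 (-0.20 to 0.23) and *Ptprn2* by 0.13 (-0.08 to 0.34). Libraries of the fractions overlapped for all 9 genes (2.05% of tested genes had no overlap), and no interval reached a 2-fold difference in either direction.

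Within mice, 4 of 4 mice had more *Chgb* in the library labelled NNAT-positive, with log2 differences from 0.07 to 0.24, and 4 of 4 had more *Ptprn2* there, with differences from 0.03 to 0.24. Of all tested genes 11.4% were higher in 4 of 4 mice. *Scg3* and *Scg5* were higher in 3 of 4, *Chga*, *Pcsk1n* and *Ptprn* in 2 of 4, and *Scg2* and *Vgf* in 1 of 4. The widest difference within a mouse was that of *Pcsk1n* in mouse 2, -0.72, and without mouse 2 its fitted difference was 0.03. In that mouse the library labelled NNAT-negative was also the highest of all in *Chga* and in its share of *Ins1* and *Ins2* (34.4%). Markers of other islet endocrine cells moved with this comparison. Summed alpha cell markers were at 2794 to 4052 CPM in libraries labelled NNAT-positive and at 1574 to 2475 CPM in the NNAT-negative libraries, delta cell markers at 1403 to 2490 and 543 to 1046 CPM, and gamma cell markers at 300 to 421 and 89.0 to 159 CPM. *Rbp4* of the 4 delta cell markers and *Ppy* and *Pyy*, both of the gamma cell markers, were called, and none of the 3 alpha cell markers was. Among the latter *Gcg* differed by 1.06 (SE 0.17) and *Irx2* by 1.14 (SE 0.21), whereas *Ttr* differed by 0.08 (SE 0.10). Summed acinar (6.81 to 1634 CPM in NNAT-positive and 38.0 to 357 CPM in NNAT-negative libraries), ductal, endothelial, leukocyte, mesenchymal and glial markers overlapped between the fractions. The epsilon cell marker *Ghrl* was at or near 0 in all beta cell libraries. The part of these markers in the small differences of the 9 genes was not tested.

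**Figure D4:**
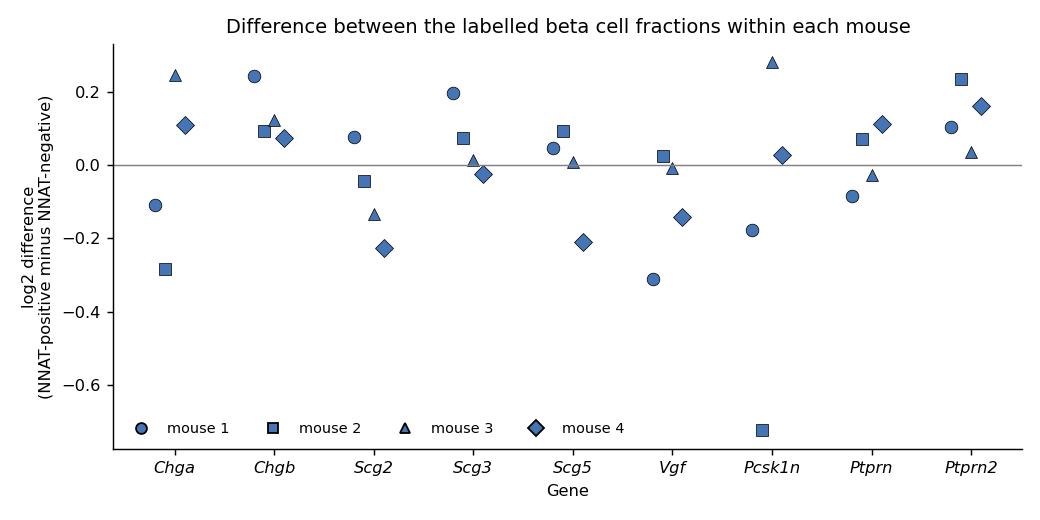
Difference in log2 CPM within a mouse, the NNAT-positive minus the NNAT-negative library by label, 1 point per mouse and gene. Only Chgb and Ptprn2 have all 4 points above 0, and the lowest point is Pcsk1n in mouse 2 at -0.72.

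Mice also differed among themselves. Both beta cell libraries of mouse 4 lay below the other 6 beta cell libraries for 8 of the 9 genes, all but *Scg5*. For 15.8% of tested genes mouse 4 was lowest in this way, and for 18.7% it was highest. The count was also 8 with RLE size factors and with the hormone genes left out of the library sizes, but it was 2 (*Vgf* and *Pcsk1n*) where counts were divided by library totals alone, without scaling factors. On that scale mouse 4 was lowest for 4.94% of tested genes and highest for 31.6%. The TMM factors were 1.12 and 1.13 for its beta cell libraries and 0.870 to 0.964 for the others. Mouse 4 had the lowest share of *Ins1* and *Ins2* among beta cell libraries (18.0% and 17.8%). Its 2 libraries had 26676 and 26745 summed CPM of the 9 genes, against 32530 to 42386 in the other beta cell libraries, while as a share of all counts the 9 genes took 2.98% and 3.01%, against 3.04% to 3.69%. Both beta cell libraries of mouse 1 lay above the other 6 for *Scg5* and *Vgf*. Those of mouse 2 did so for *Scg2* and, with TMM scaling but not with library totals alone, for *Scg3*. With RLE size factors and with the hormone genes left out, mouse 2 was highest in this way for *Chgb* as well, and with library totals alone for *Chga*. Levels of *Chga* and *Pcsk1n* fell in nearly the same order over the 8 beta cell libraries, from the NNAT-negative library of mouse 2 at the top to that of mouse 4 at the bottom for both, whereas across fractions the genes went opposite ways.

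The partners of these proteins were read from lists of 50 other granule genes. That name is used here for all 50, although 5 of them are regulators and do not encode granule proteins. *Pcsk1*, the convertase inhibited by proSAAS, was at 1321 ± 117, 1275 ± 82.3 and 93.8 ± 27.3 CPM in NNAT-positive, NNAT-negative and non-beta cells. Beta cells were above non-beta cells by 3.85 on the log2 scale (SE 0.16, adjusted *p* = 4.42e-08 by edgeR). The ratio of *Pcsk1n* to *Pcsk1* per length was therefore 1.46 ± 0.266, 1.78 ± 0.789 and 42.9 ± 4.31. *Pcsk2*, the convertase that pairs with the *Scg5* product and matures glucagon as well as insulin, was at 5265 ± 956, 5144 ± 1016 and 7075 ± 945 CPM and was not called (log2 fold change -0.32, SE 0.09, adjusted *p* = 0.0125 by edgeR). The ratio of *Scg5* to *Pcsk2* was 0.997 ± 0.183, 1.03 ± 0.193 and 0.608 ± 0.0820, and the non-beta libraries (up to 0.695) lay below the beta cell libraries (from 0.741). *Cpe*, the carboxypeptidase that trims basic residues after the convertases and that binds the *Scg3* product, was higher in beta cells by 0.57 (SE 0.08, adjusted *p* = 0.000251 by edgeR). *Pam*, the enzyme of peptide amidation, was lower by 0.71 on the log2 scale at 865 ± 124, 776 ± 90.8 and 1427 ± 64.0 CPM (adjusted *p* = 2.73e-05 by edgeR), and so was *Qpct*, a glutaminyl cyclase, at 4.51 ± 2.05, 3.30 ± 1.63 and 17.8 ± 2.68 CPM (adjusted *p* = 9.84e-05 by edgeR). Of the 6 processing enzymes 2 were thus higher and 2 lower, and *Furin* and *Pcsk2* were not called. Over all tested genes 17.2% were higher and 23.9% lower.

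Of the 19 genes for granule biogenesis, 8 were higher in beta cells, 1 was lower and 10 were not called, so that 9 were called where 41.1% of all tested genes were. *Hid1*, needed for the exit of granule cargo from the trans-Golgi, was at 228 ± 43.4, 225 ± 31.9 and 109 ± 19.1 CPM (log2 fold change 1.07, SE 0.09), *Ap3d1*, a subunit of the adaptor complex AP3, differed by 0.93 (SE 0.08) and *Arfip2*, a BAR domain protein of the trans-Golgi, by 0.89 (SE 0.08). *Sdf4*, a calcium-binding protein of the Golgi lumen, was the one lower, by 0.41 on the log2 scale (SE 0.09).

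Of the 20 genes for granule membrane, docking and exocytosis, 13 were higher, 3 lower and 4 not called, where 17.2% of all tested genes were higher and 23.9% lower. *Sytl4*, the granuphilin gene, whose product docks granules through RAB27A, was at 675 ± 39.3, 746 ± 31.5 and 34.0 ± 20.1 CPM (log2 fold change 4.50, SE 0.27). *Sv2a*, for a synaptic vesicle glycoprotein, was at 235 ± 44.0, 267 ± 69.5 and 67.0 ± 11.9 CPM (2.04, SE 0.11), and *Slc30a8*, the zinc transporter of insulin granules, at 1336 ± 107, 1339 ± 133 and 515 ± 87.3 CPM (1.40, SE 0.09). The genes lower in beta cells were *Sv2b* at 7.71 ± 2.23, 6.59 ± 3.55 and 42.8 ± 10.7 CPM, *Cltrn*, encoding collectrin, at 474 ± 77.1, 390 ± 56.8 and 1104 ± 115 CPM, and *Syt9*, a calcium sensor, at 17.5 ± 2.33, 16.9 ± 2.14 and 42.6 ± 5.54 CPM. The relatives *Sv2a* and *Sv2b* thus went opposite ways. Their relative *Sv2c*, in the same list, was not called, at 2.56 ± 0.695, 1.82 ± 0.691 and 3.27 ± 0.581 CPM.

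Among 5 regulators, *Insm1* and *Neurod1*, transcription factors of endocrine differentiation, were higher in beta cells, by 1.88 (SE 0.13) and 1.12 (SE 0.10) on the log2 scale. *Rest*, the repressor that keeps neuronal and granin genes silent outside neural and endocrine cells, was called lower (adjusted *p* = 3.76e-05 by edgeR). It had between 0 and 12 counts in the beta cell libraries, with 0 in 3 of the 8, and 209 to 373 counts, 5.54 to 8.06 CPM, in the non-beta libraries, which also held the acinar, endothelial and mesenchymal markers given above. *Creb1*, a factor that binds the cAMP response element, and *Rcor1* were not called. Over the 50 genes 25 were higher and 7 lower, with a median log2 fold change of 0.49, against 17.2% higher, 23.9% lower and a median of -0.10 over all tested genes.

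Between the beta cell fractions none of the 50 was called by edgeR, with 2 at an unadjusted *p* below 0.05, *Furin* (0.34, SE 0.10, adjusted *p* = 0.525) and *Cltrn* (0.28, SE 0.08, adjusted *p* = 0.512). Of all tested genes 0.0517% were called and 5.56% had an unadjusted *p* below 0.05 by edgeR, so the 50 did not stand out. In 4 of 4 mice both were above the NNAT-negative library, as were 11.4% of all tested genes. Both were picked by their *p* in these same libraries, so this is not a separate result. DESeq2 called 1, *Cltrn*, at 0.24 on the log2 scale (adjusted *p* = 0.00274), and over the 17424 tested genes it called 123 higher and 14 lower. The median over the 50 was 0.02, and that over all tested genes 0.05.

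**Figure D5:**
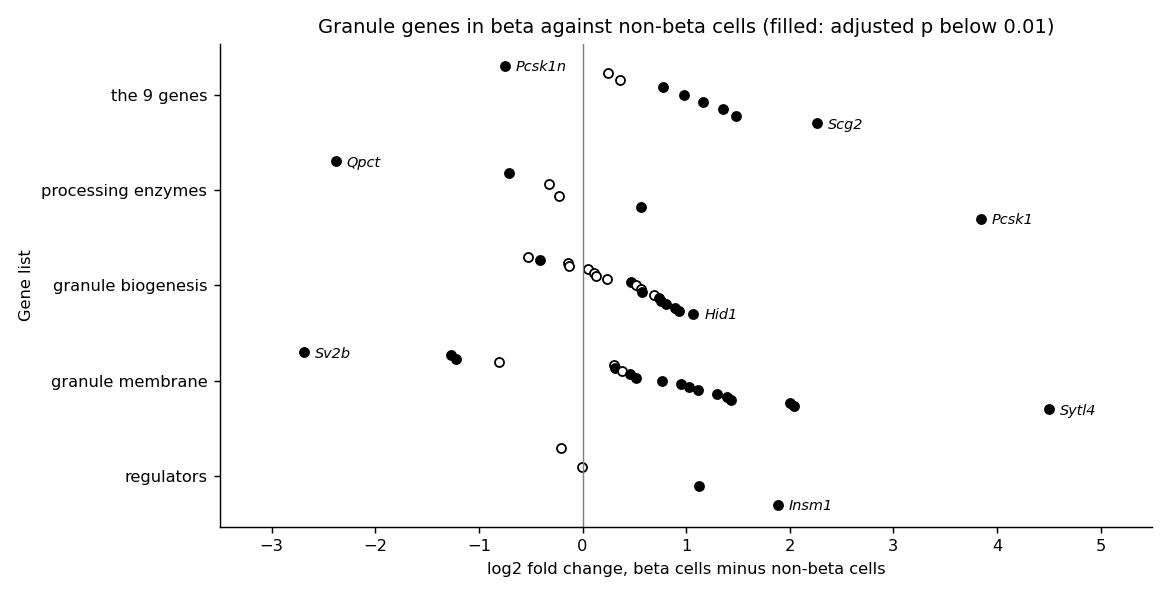
Log2 fold changes between beta and non-beta cells for the 9 genes and for the lists of other granule genes, 1 point per gene, filled where the adjusted p was below 0.01 (edgeR). Rest and Slc18a2 are left out because their counts in beta cells were near 0; the points reach from -2.69 (Sv2b) to 4.50 (Sytl4).

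Genes that followed each member most closely were taken by Pearson's *r* of log2 CPM over the 11 libraries among 9275 genes with a mean of at least 10 CPM. These libraries come from 4 mice and fall into beta and non-beta cells, so the values largely describe that split. Those nearest were *Vdr* (0.997) and *Pdx1* (0.995) for *Scg3*, *Akr1c12* (0.995) and *Nucb2* (0.992) for *Scg2*, *Enho* (0.989) and *Syp* (0.988) for *Chga*, and *Ptprf* (0.990) and *Edem2* (0.985) for *Ptprn*. For *Ptprn2* they were *Fam102a* (0.988) and *Rcan3* (0.982), and for *Vgf* *Lamp1* (0.974) and *Lmf1* (0.966). *Pcsk1n* went with the ribosomal protein genes *Rps6* (0.979) and *Rpl8* (0.967). The values were lowest for the members that were not called, *Chgb* with *Sel1l3* (0.945) and *Ang* (0.931), and *Scg5* with *Msantd4* (0.919) and *Rtkn2* (0.905).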

How the data were processed

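Per the labels and the study's methods, poly(A)-selected RNA of sorted cells was made into libraries with a directional kit and sequenced as paired reads of 75 bases. The authors aligned these with STAR 2.7.1a to mm10, counted reads per gene and deposited the raw counts of 11 libraries; the strand setting of the counting is not given in the sources used here. Among 55 pairs of libraries, 0 held identical values.

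Counts were analysed in R 4.3.3 with edgeR 4.0.16 (TMM, filterByExpr by fraction, quasi-likelihood test) on all 11 libraries in 1 fit, with fraction and mouse as terms. A call needed a *p* below 0.01 after Benjamini-Hochberg adjustment over 17424 genes. SEs were derived from the fitted change and its F statistic. CPM used TMM-scaled library sizes, log2 CPM a prior count of 2, and RPKM the exonic length in gencode M21 (GRCm38), an earlier release than the one the authors counted with, which also gave coordinates; promoter sequences came from RefSeq (GRCm38.p6). The test was checked on simulated counts with known changes.

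Same-numbered beta cell libraries of a mouse deviated together (correlation 0.182 to 0.658 over 4 pairs, mean -0.103 between mice), and beta and non-beta libraries of a mouse less so (0.0321 to 0.125 over 6 pairs, -0.105 to 0.0683 between mice); the pairing comes from the labels' numbers and the study's description of individual mice. Genes and lists were chosen with earlier results of these data known. Named beyond the 9 were, per list, the 3 called genes with the smallest *p* in each direction, the direct partners *Pcsk1*, *Pcsk2*, *Cpe*, *Pam* and *Slc30a8*, *Rest*, marker genes that check the labels, and the 2 genes nearest to each member. *Furin*, *Cltrn*, *Creb1*, *Rcor1*, *Slc18a2* and *Sv2c* were named after their values were seen. Alternatives were DESeq2 1.42.0, RLE size factors, 7 hormone genes left out of library sizes, no filter, no mouse block, other thresholds, beta cell libraries alone and each mouse left out. The comparison of mouse 4 with the other mice, and its other scalings, were chosen after the data were seen. Part of the marker list is not reported here.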

Additional observations from a re-analysis of the deposited data

Results flagged for a closer look

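*Chgb* in the NNAT-positive library of mouse 4 stood apart from the other libraries of its fraction, at 1647 CPM against 2014 to 2064 CPM. Gaps were measured on the log2 scale, and the flags hold for that scale only. The gap of *Chgb* to the nearest library was 0.892 of the whole log2 range, above Dixon's 95% critical value for 4 samples. *Ptprn2* in the same library did so too, at 796 CPM against 1074 to 1134 CPM, with a gap of 0.846 of the log2 range. Neither passed as a share of library totals, without TMM factors, an alternative chosen after the data were seen. The gap was then 0.252 of the log2 range for *Chgb* (0.184% of counts against 0.188% to 0.199%). For *Ptprn2* it was 0.573 (0.0891% against 0.100% to 0.109%), and both gaps were below the critical value. These were 2 of 18 checks of a gene in a beta cell fraction, where chance gives about 1 in 20, and both came from 1 library, so they are not independent.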

How the results depend on the processing

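Between beta and non-beta cells the number of the 9 genes called was 7, and it was 6 to 7 with each mouse left out and 4 where a more than 2-fold change was also asked (4 as well for NNAT-positive against non-beta cells, and 17 in place of 32 for the other granule genes). With no replicate block for the mouse it was 6, and it was 5 against NNAT-positive and 4 against NNAT-negative cells alone, where the main counts were 7 and 6; *Vgf* lost its call in each of the 3 comparisons, *Pcsk1n* in that with NNAT-positive and *Ptprn2* (adjusted *p* = 0.0164 by edgeR) in that with NNAT-negative cells. Directions against non-beta cells were the same under every alternative run for all 9 genes.

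Between the beta cell fractions 0 of the 9 were called under every alternative run, and DESeq2 called 1 of the other granule genes. Signs there turned for 4 genes. With each mouse left out in turn, *Chga* ranged from -0.104 to 0.0724, *Scg5* from -0.0519 to 0.0115, *Pcsk1n* from -0.290 to 0.0319 and *Ptprn* from -0.0535 to 0.0532, on the log2 scale. *Scg5* was at 0.00326 with no replicate block. *Ptprn* was at -0.0198 both with DESeq2 and with RLE size factors, at -0.0223 with the hormone genes left out, at -0.0164 with no filter and at -0.0207 with beta cell libraries alone. Over all tested genes 9 were called between these fractions, against 123 higher and 14 lower with DESeq2, 29 and 1 with no filter, 1 with no replicate block, and 0 to 5 with each mouse left out (0 without mouse 3). The cause was not tested. With 4 mice, and 3 with non-beta cells, differences smaller than the intervals given could not be resolved.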
